A study of Triticum aestivum with 18 samples.

Results

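The genes wali1, PCS1 and TaDMAS1 encode proteins that bind metal ions or make small molecules that do. They were followed in root apices of bread wheat (Triticum aestivum) with and without aluminium (Al). All probe rows whose symbol, or its RefSeq synonym, is one of these names were taken, which gives 7 of the 45220 probe rows on the array and 3 of its 553 named symbols. Probes 5700, 9919 and 13271 are annotated to wali1, probes 17597 and 32787 to PCS1, and probes 18395 and 41405 to TaDMAS1. Each probe is given apart, since a probe's brightness depends on its sequence and label as well as on its transcript.

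Metallothioneins are small proteins rich in cysteine that hold metal ions through sulfur, and wali1 is a metallothionein-like gene first isolated from wheat roots exposed to Al. PCS1 encodes phytochelatin synthase, the enzyme that joins glutathione units into phytochelatins, peptides best known for binding cadmium. TaDMAS1 encodes deoxymugineic acid synthase, which makes the phytosiderophore deoxymugineic acid from a product of nicotianamine. Grass roots release phytosiderophores to dissolve iron and take it up.

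The wheat cultivar Chinese Spring (CS) was compared with the addition lines 3R and 6R. An addition line holds all wheat chromosomes and a chromosome pair of rye (Secale cereale), so both its control and its Al samples carry the rye pair. Seedlings spent their last 24 h in nutrient solution with 200 µM AlCl3 or in the same solution without it, and root apices were taken at an age of 5 days. Each of the 6 groups of line and treatment holds 3 samples, named as biological replicates and each made from 9 pooled root tips of 1 cm. The arrays show whether the transcripts respond to Al in each line and whether the lines differ without Al. A 1 cm tip holds several cell types, and fewer cells of a type and less RNA per cell cannot be told apart in such samples. Whether a probe also binds transcripts of the added rye chromosomes was not measured.

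Treated and untreated RNA of a replicate went onto the same array, 9 arrays in all, one labelled with Cy3 and the other with Hyper 5 dye. Cy3 labelled Al on 2 arrays of every line and control on the third, so that each line has 1 control sample in Cy3 and 2 in Hyper 5. The values are log2 intensities between 5.62 and 15.73, and the lowest mean of a member probe was 9.41. Replicates of a group correlated at 0.941 to 0.98 over all rows. The values look normalized within each line separately, with sample medians of 7.33 in CS, 7.09 in 3R and 7.22 in 6R. The labelled tissue was checked with histone probes as markers of dividing cells, whose median lay at the 53.3rd to 63.1st percentile of all rows in the 6 groups. Markers of grain lay at the 34.3rd to 38.5th percentile. Markers of green tissue, 26 probes of 5 genes, lay at the 70.8th to 82.5th percentile, and their part in the results below was not tested.

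The dye moved the wali1 probes and TaDMAS1 probe 41405 by more than Al did in any line, and the wali1 probes in opposite directions. At TaDMAS1 probe 18395 it was about as large as the Al response in 6R. At the PCS1 probes it was smaller than the Al response in CS and in 6R. The fitted dye effect is given as Cy3 minus Hyper 5 on the log2 scale, over the 9 arrays. For wali1 it was -1.23 at probe 5700, 0.93 at probe 9919 and 2.79 at probe 13271, which was brighter in Cy3. Of all rows, 0.124% had a dye effect larger in size than that of probe 13271. Both TaDMAS1 probes were brighter in Hyper 5, with -1.37 at probe 18395 and -1.29 at probe 41405. The PCS1 probes were moved least, with -0.46 at probe 17597 and -0.38 at probe 32787, also towards Hyper 5. Dye passed the test at all 7 probes (adjusted p from 5e-05 to 0.0039), as at 39.6% of all rows.

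**Figure D1:**
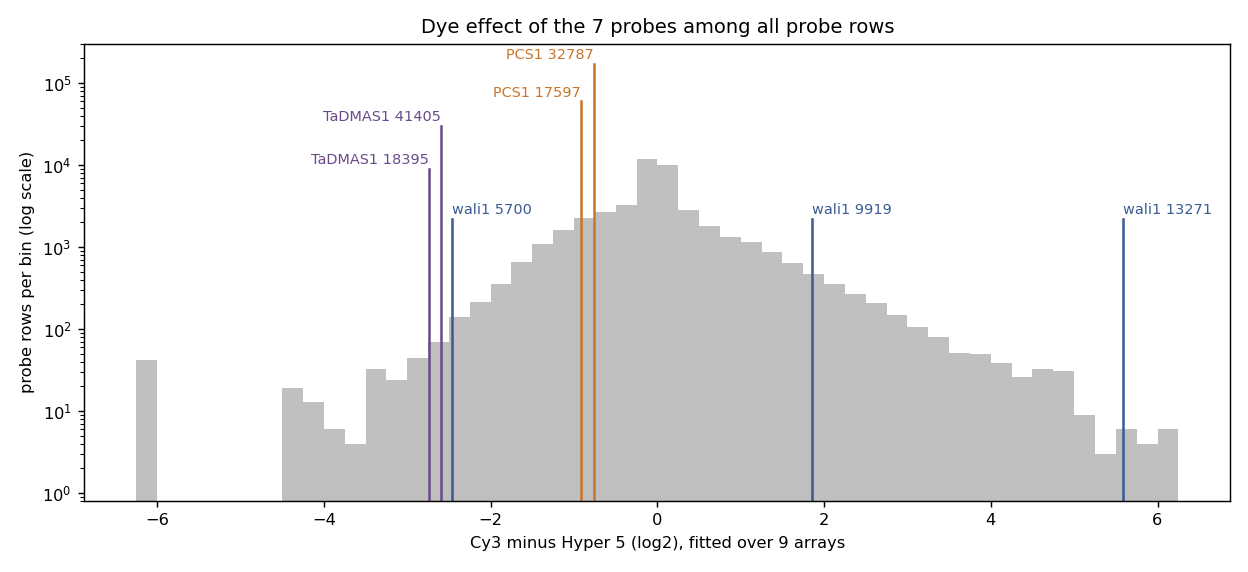
Fitted difference between Cy3 and Hyper 5 (log2), drawn doubled on the horizontal axis, and the number of probe rows per bin on a log vertical axis. Grey bars are all 45220 rows and coloured lines the 7 member probes. On this doubled axis the line of wali1 probe 13271, whose fitted difference is 2.79, stands at 5.59 and both TaDMAS1 probes stand below -2.

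For this reason 2 readings are given for each probe. The first is the mean log2 ratio of Al over control in the arrays of a line with the probe's dye effect removed, from limma, where a probe is called at an adjusted p under 0.05 over all rows. The second sets only samples of the same dye beside each other, in Cy3 (2 Al samples against 1 control sample per line) and in Hyper 5 (1 against 2). This gives 6 same-dye differences per probe, which need no dye correction but carry no test.

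**Figure D2:**
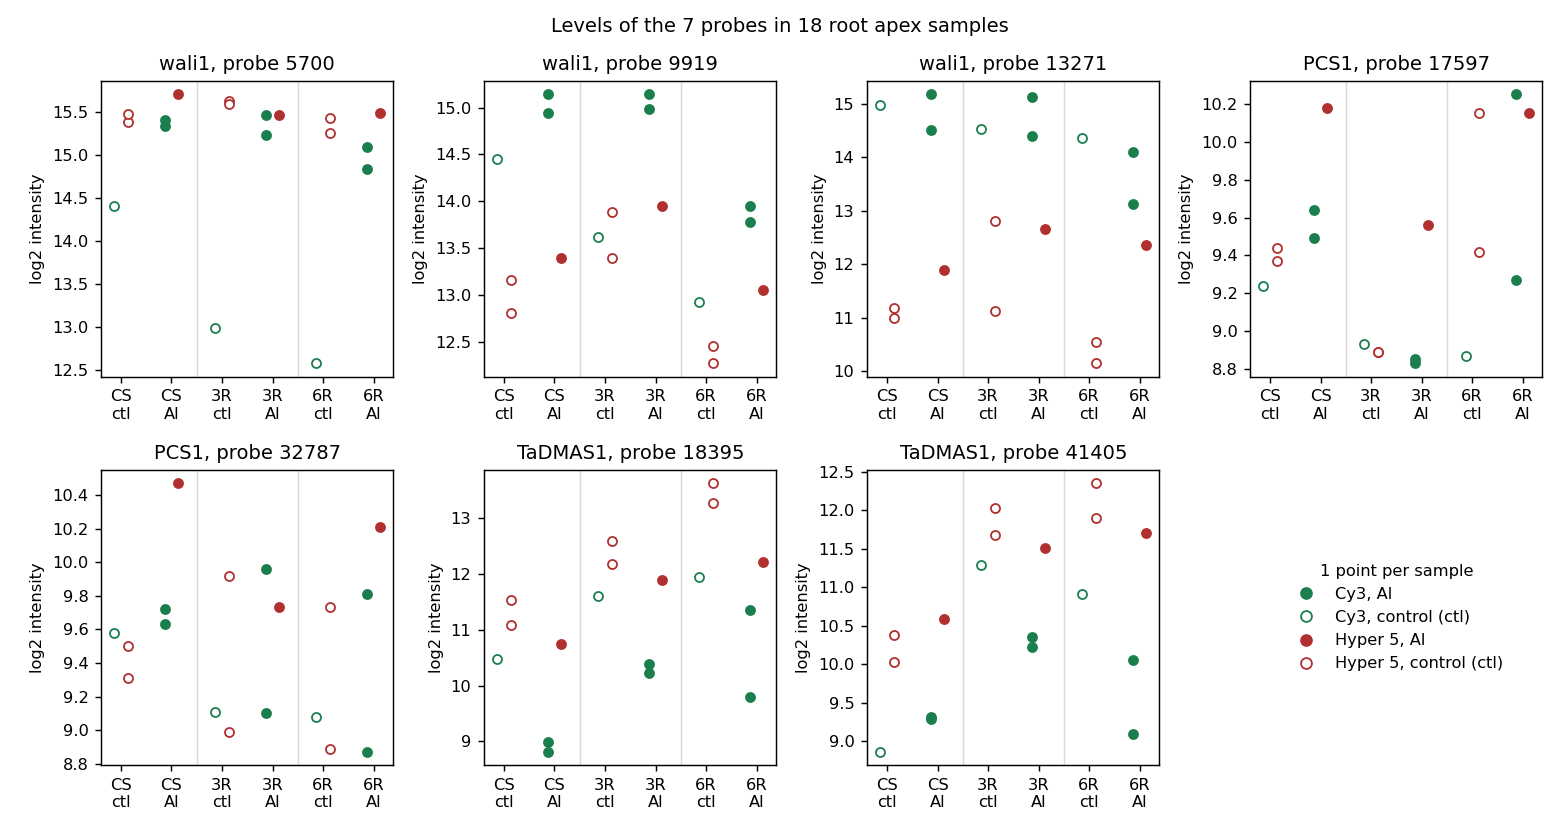
Log2 intensity of the 7 probes (vertical axes, each with its own range) in the 6 groups of line and treatment, 1 point per sample. Green points are Cy3 and red points Hyper 5, filled for Al and open for control. At wali1 probe 5700 the 3 open green points, the Cy3 controls, lie lowest in their lines.

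Both probes of PCS1 were higher with Al. Averaged over the 3 lines, probe 17597 rose by 0.49 ± 0.06 (standard error, SE) on the log2 scale (1.41-fold, 9 arrays, adjusted p = 0.00063). Probe 32787 rose 1.42-fold (0.50 ± 0.06, adjusted p = 4e-04). With the dye effect removed, the ratio of either probe was above 0 in 9 of 9 arrays. Before dye removal it was above 0 in 6 of 9 arrays at probe 17597 and in 8 of 9 at probe 32787. These are the members with the smallest errors.

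At PCS1 probe 32787 the control samples of CS read 9.50, 9.58 and 9.31 in replicates 1 to 3, and the Al samples 9.63, 10.47 and 9.72. Every Al sample of CS thus lay above every control sample, and the share of all rows that separate this way was not counted. In 3R the controls read 9.92, 9.11 and 8.99 and the Al samples 9.96, 9.73 and 9.10, and the groups overlapped. In 6R the controls read 9.08, 8.89 and 9.73 against 10.21, 8.87 and 9.81 with Al, again with overlap. Within arrays, Al lay above control by 1.13 in 6R replicate 1 and 0.63 in 3R replicate 2, the arrays with Al in Hyper 5, and the other arrays of these lines differed by -0.02 to 0.10. The fitted rise was 0.60 ± 0.10 in CS (1.52-fold, 3 arrays, adjusted p = 0.0043), 0.38 ± 0.10 in 3R (1.30-fold, adjusted p = 0.044) and 0.53 ± 0.10 in 6R (1.44-fold, adjusted p = 0.0068). All 6 same-dye differences were above 0, from 0.10 to 1.06. Over all rows, 8.28% were higher with Al in all 6 same-dye differences and 8.14% were lower in all 6. The call in 3R was lost when any of 6 arrays was left out (CS replicate 1, each replicate of 3R, 6R replicates 2 and 3), with adjusted p from 0.053 to 0.21. The call in 6R was lost without 6R replicate 1, at 0.33 (adjusted p = 0.10).

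At PCS1 probe 17597 the controls of CS read 9.37, 9.24 and 9.44 and the Al samples 9.49, 10.18 and 9.64, with no overlap. For this probe too, the share of all rows that separate this way in CS was not counted. The controls of 3R stood together at 8.89, 8.93 and 8.89, and of its Al samples (8.83, 9.56 and 8.85) only the Hyper 5 sample lay above them. In 6R the controls spread from 8.87 to 10.15 (8.87, 10.15 and 9.42) and overlapped the Al samples at 10.15, 10.25 and 9.27. The fitted rise passed in CS (0.58 ± 0.11, 1.49-fold, adjusted p = 0.0069) and in 6R (0.56 ± 0.11, 1.48-fold, adjusted p = 0.0065). In 3R the value was 0.33 ± 0.11 (adjusted p = 0.087). Of the same-dye differences 5 were above 0, up to 0.90, and the Cy3 samples of 3R gave -0.09. The call in 6R was lost without 6R replicate 1, at 0.34 (adjusted p = 0.085). Over the 9 array ratios the probes of PCS1 correlated at r = 0.82 with dye removed, and over the levels of the 18 samples at r = 0.16. These points share arrays and lines, and the values are a description.

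Of the TaDMAS1 probes, 18395 fell with Al in CS and 6R and 41405 fell in 6R, and the other values of both probes did not pass. Averaged over the lines, probe 18395 fell by 1.09 ± 0.14 on the log2 scale (2.13-fold lower, 9 arrays, adjusted p = 0.00056), with a ratio below 0 in 9 of 9 arrays after dye removal and in 6 of 9 before. Probe 41405 gave a mean of -0.38 ± 0.18 (adjusted p = 0.16). Both probes carry the same transcript accession in the annotation.

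At TaDMAS1 probe 18395 the controls of CS read 11.09, 10.47 and 11.53 and the Al samples 8.81, 10.75 and 8.98. In 3R the values were 12.59, 11.61 and 12.18 in controls and 10.23, 11.90 and 10.38 with Al. In 6R they were 11.94, 13.63 and 13.28 in controls and 12.21, 11.36 and 9.79 with Al. The highest Al sample of each line is its Hyper 5 sample and the lowest control its Cy3 sample, and these meet in all 3 lines. Among samples of the same dye Al lay below control without overlap in all 6 comparisons, as in 3.21% of all rows, by -1.58 in the Cy3 samples of CS to -0.49 in the Hyper 5 samples of 3R. The fitted change was -1.06 ± 0.24 in CS (adjusted p = 0.014) and -1.37 ± 0.24 in 6R (adjusted p = 0.0039). In 3R it was -0.84 ± 0.24 (adjusted p = 0.053). The call in CS was lost without CS replicate 2 (-1.04, adjusted p = 0.084) or CS replicate 3 (-1.0, adjusted p = 0.078), and 3R passed without 6R replicate 3 (-0.87, adjusted p = 0.0046). The array of 6R replicate 3 gave -2.12 with dye removed, against -1.10 and -0.90 in the other arrays of 6R.

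At TaDMAS1 probe 41405 the controls of CS read 10.03, 8.86 and 10.38 and the Al samples 9.31, 10.58 and 9.29. The controls of 3R read 12.03, 11.29 and 11.68, and its Al samples 10.22, 11.51 and 10.35. The controls of 6R read 10.91, 11.90 and 12.35, and its Al samples 11.70, 10.05 and 9.09. Within a dye the Al samples of CS lay above the controls, by 0.44 in Cy3 and 0.37 in Hyper 5. Those of 3R lay below by 1.00 and 0.35, and those of 6R by 1.33 and 0.43. None of the 6 comparisons had overlapping samples, which was also so in 16.8% of all rows, counted in either direction. The fitted value was 0.40 ± 0.31 in CS (adjusted p = 0.46) and -0.54 ± 0.31 in 3R (adjusted p = 0.34), where it was -0.08 without 3R replicate 2. The fall in 6R passed at -1.01 ± 0.31 (2.01-fold lower, adjusted p = 0.046), but it lost the call when any 1 of the 9 arrays was left out (adjusted p from 0.052 to 0.12). It was -0.53 without 6R replicate 3.

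**Figure D3:**
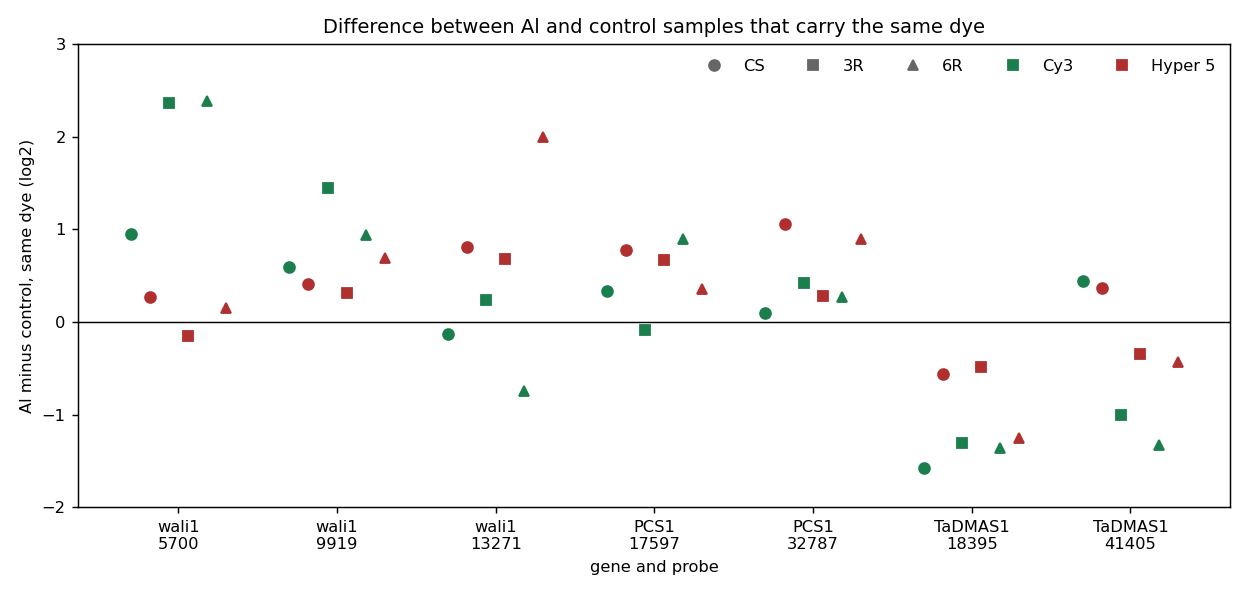
Al minus control in log2 units (vertical axis) for each probe, taken among samples of the same dye in a line. Circles are CS, squares 3R and triangles 6R, and green is Cy3 and red Hyper 5. All points of TaDMAS1 probe 18395 lie below 0, all points of wali1 probe 9919 and PCS1 probe 32787 lie above it, and at TaDMAS1 probe 41405 the 2 points of CS alone lie above 0.

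The 3 probes of wali1 differed in their same-dye values. Probe 9919 was higher with Al in every same-dye comparison. Probe 5700 was higher in Cy3 and nearly level in Hyper 5, and probe 13271 had no single direction. Averaged over the lines, probe 5700 rose by 1.00 ± 0.16 (1.99-fold, 9 arrays, adjusted p = 0.0017) and probe 9919 by 0.73 ± 0.18 (1.66-fold, adjusted p = 0.013), while probe 13271 stood at 0.47 ± 0.21 (adjusted p = 0.14).

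At wali1 probe 9919 the controls of CS read 12.81, 14.45 and 13.16 and the Al samples 15.14, 13.39 and 14.94. The controls of 3R read 13.88, 13.62 and 13.39 and its Al samples 15.14, 13.95 and 14.99. In 6R the controls read 12.92, 12.27 and 12.45 and the Al samples 13.05, 13.95 and 13.78. The probe is brighter in Cy3, the dye of most Al samples and of few controls, so Al and control are compared only within a dye. The 6 same-dye differences ran from 0.31 to 1.45, with Al above control without overlap in each, as in 4.39% of all rows. The fitted values were 0.71 ± 0.30 in CS (adjusted p = 0.14), 0.75 ± 0.30 in 3R (adjusted p = 0.15) and 0.73 ± 0.30 in 6R (adjusted p = 0.12), so that no line passed alone. The array of CS replicate 2 had a ratio of -0.13 with dye removed, the single one of 9 below 0. CS replicate 2, 3R replicate 2 and 6R replicate 1 are the only arrays of their lines with Al in Hyper 5. Without such an array the value of its line, at this and other probes, rests on a dye effect taken from the other lines. Without CS replicate 2 the values passed in all lines, at 1.44 in CS (adjusted p = 0.0027), 0.85 in 3R (adjusted p = 0.0066) and 0.84 in 6R (adjusted p = 0.004). Leaving out other arrays lowered them, to 0.36 in CS without CS replicate 1, 0.30 in 3R without 3R replicate 2 and 0.45 in 6R without 6R replicate 1. The mean over lines lost its call without 3R replicate 2 (0.54, adjusted p = 0.091) or 6R replicate 1 (0.61, adjusted p = 0.085).

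Probe 5700 of wali1 was among the brightest on the array. The controls of CS read 15.38, 14.41 and 15.47 and the Al samples 15.33, 15.70 and 15.40. The controls of 3R read 15.63, 12.99 and 15.59 and its Al samples 15.23, 15.46 and 15.46. The controls of 6R read 12.58, 15.25 and 15.43 and its Al samples 15.49, 15.09 and 14.84. The low samples at 14.41, 12.99 and 12.58 are the Cy3 controls, 1 in each line, and the other 15 samples lay between 14.84 and 15.70. All 9 Hyper 5 samples stood within 0.39 of the highest value of their sample, so a rise has little room there. The table has no flag for saturated spots.

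In Cy3 the Al samples of wali1 probe 5700 lay above the control by 0.95 in CS, 2.36 in 3R and 2.39 in 6R. In Hyper 5 the differences were 0.27, -0.15 and 0.15. The fitted rise was 1.06 ± 0.26 in 3R (2.08-fold, adjusted p = 0.035) and 1.13 ± 0.26 in 6R (2.19-fold, adjusted p = 0.016), and the value in CS was 0.80 ± 0.26 (adjusted p = 0.07). The fit removes 1 dye effect per probe, and the raw ratio was above 0 in 1 of 3 arrays of each line, the array with Al in Hyper 5. The call in 3R was lost without any single replicate of 3R or 6R replicate 2 (adjusted p from 0.058 to 0.31). The call in 6R was lost without 6R replicate 1 (0.65, adjusted p = 0.23) or 6R replicate 2 (1.16, adjusted p = 0.057). CS passed at 1.45 without CS replicate 2 (adjusted p = 0.0018).

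At wali1 probe 13271 the Cy3 samples ran from 13.13 to 15.17 and the Hyper 5 samples from 10.15 to 12.81, so that the dyes did not overlap. Of the same-dye differences 4 were above 0 and 2 below, from -0.75 in the Cy3 samples of 6R to 2.00 in its Hyper 5 samples. The fitted values did not pass in CS (0.55 ± 0.35, adjusted p = 0.36), 3R (0.30 ± 0.35, adjusted p = 0.72) or 6R (0.57 ± 0.35, adjusted p = 0.33). Without CS replicate 2 the value in CS passed at 1.28 (adjusted p = 0.041) and the mean of the lines at 0.78 (adjusted p = 0.013). Without CS replicate 1 the value in CS was 0.13, and without 3R replicate 2 the mean was 0.24. Over the 18 samples with dye removed, probe 5700 correlated with 9919 at r = 0.74 and with 13271 at r = 0.13, and 9919 with 13271 at r = 0.56. Over the 9 array ratios these r were 0.85, 0.57 and 0.78. The TaDMAS1 probes correlated at r = 0.79 over samples and 0.68 over array ratios. These r are descriptions over samples that share arrays.

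**Figure D4:**
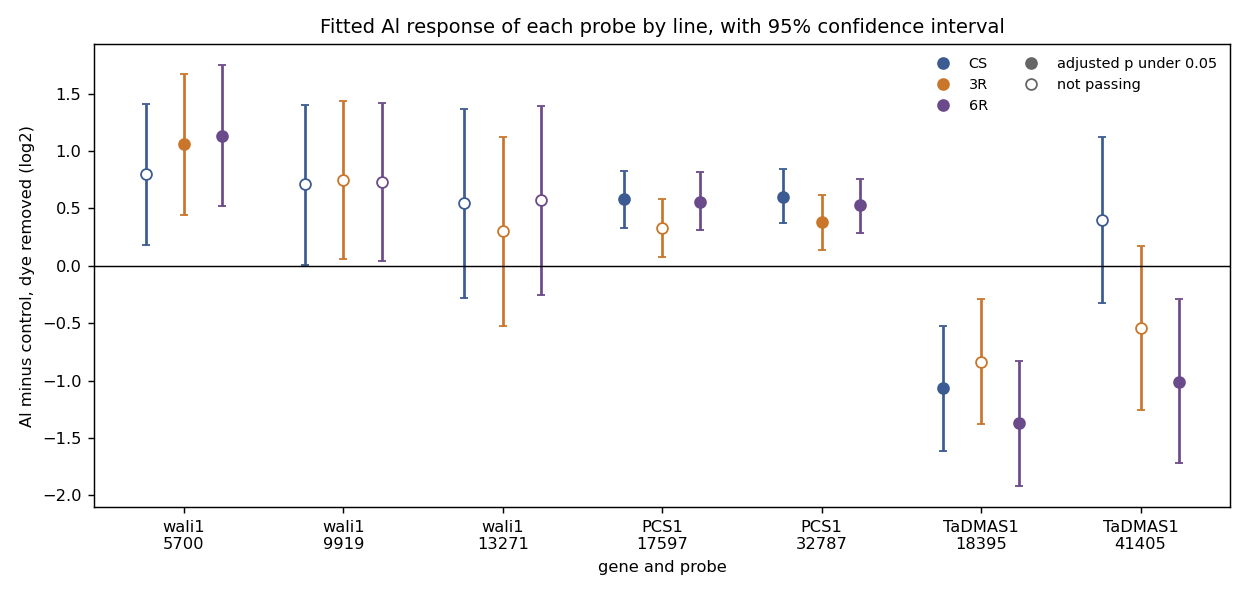
Fitted log2 difference of Al and control with the dye effect removed (vertical axis) for each probe in CS, 3R and 6R, over 3 arrays per line. Bars are 95% confidence intervals and filled points passed at an adjusted p under 0.05. PCS1 has the shortest bars, and at TaDMAS1 probe 41405 the value is 0.40 in CS and -1.01 in 6R.

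By count, CS had 2 of the 7 probes that rose and 1 that fell, where 11.6% of all rows rose and 11.4% fell. In 3R 2 rose and 0 fell, against 7.71% and 7.19% of all rows. In 6R 3 rose and 2 fell, against 13.7% and 13.3%. In the mean of the lines 4 rose and 1 fell, against 17.2% and 19% of all rows. At an unadjusted p under 0.05 the members were 5 of 7 in CS, 5 in 3R, 6 in 6R and 5 in the mean, against 32.7%, 26.3%, 35.4% and 42.2% of all rows. The median of the 7 probes was 0.58 in CS, 0.33 in 3R and 0.56 in 6R, with medians over all rows of -0.01, -0.01 and 0. The 26 markers of green tissue had medians of 0.44, 0.29 and 0.35 in these lines, and averaged over the lines 5 of the 26 passed as higher and 4 as lower. Their part in the members' values was not tested. With no dye term, 0 of the 7 probes passed in any line or in the mean, while 8.65% of all rows passed in CS, 3.74% in 3R, 9.8% in 6R and 20.3% in the mean. In a fit without the pairing of samples on an array, 0 passed in CS, 0 in 3R, 1 in 6R and 3 in the mean of the lines, against 5.28%, 1.63%, 6.01% and 13.8% of all rows. Within slides the mean dye-removed ratios kept their sign in every line at all member probes except wali1 probe 13271. At that probe the slides of 3R gave 0.70 and -0.49. At TaDMAS1 probe 41405 the slides of 3R gave -0.80 and -0.03, the latter close to 0.

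The response to Al was then compared between lines. No member probe passed for 3R minus CS, 6R minus CS or 3R minus 6R in limma, where 1.84%, 0.318% and 1.09% of all rows passed. At an unadjusted p under 0.05 the counts were 0, 1 and 0 of 7, against 10.7%, 9.01% and 10.8% of all rows. That 1 probe is TaDMAS1 probe 41405, for which 6R minus CS was -1.41 ± 0.43 (95% interval -2.40 to -0.41, adjusted p = 0.35). For 3R minus CS it was -0.94 ± 0.43 (-1.94 to 0.05, adjusted p = 0.51). At the PCS1 probes the intervals of the differences lay between -0.60 and 0.34, and at the wali1 probes between -1.41 and 1.19. At TaDMAS1 probe 18395 they lay between -1.07 and 1.30. Each of these probes had an interval that reached the size of its mean response over the lines. A difference between lines as large as the response itself was thus not excluded at any of them.

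Without Al, the lines differed most at TaDMAS1. At probe 41405 the control level of 3R was 3.76-fold that of CS (log2 1.91 ± 0.40, adjusted p = 0.021), the 1 member called among the 7. This comparison called 1297 rows, 2.87% of all. For 6R minus CS the difference was of similar size, 1.96 ± 0.40 (3.89-fold), and did not pass (adjusted p = 0.12), and 28 rows or 0.0619% passed there. With so few rows called, a row needed a smaller p to pass than for 3R minus CS. Probe 18395 gave 1.09 ± 0.37 for 3R minus CS (adjusted p = 0.16) and 1.92 ± 0.37 for 6R minus CS (adjusted p = 0.095). Between 3R and 6R 0 of 7 members and 1.23% of all rows passed, and TaDMAS1 gave -0.83 ± 0.37 at probe 18395 (adjusted p = 0.58) and -0.05 ± 0.40 at probe 41405.

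Every line has its controls in the same dyes, so these differences can be read in the samples themselves. At TaDMAS1 probe 41405 the Cy3 control read 8.86 in CS, 11.29 in 3R and 10.91 in 6R, and the Hyper 5 controls averaged 10.21, 11.86 and 12.13. At probe 18395 the Cy3 control read 10.47 in CS, 11.61 in 3R and 11.94 in 6R, and the Hyper 5 controls averaged 11.31, 12.39 and 13.46. At both probes the controls of the addition lines thus lay above those of CS in either dye. How many of all rows have this order was not counted. The order remained with Al, with differences from CS of 1.14 to 1.68 at probe 18395 and of 0.27 to 1.12 at probe 41405 within a dye, where the Cy3 samples of 6R and CS overlapped. Slides bear on this comparison, since replicates 1 and 2 of CS were on another slide than those of 3R and 6R, and replicate 3 of all lines shared a slide. Within the shared slide, with 1 array per line and dye removed, probe 41405 gave 1.30 for 3R minus CS and 1.97 for 6R minus CS, and probe 18395 gave 0.64 and 1.75. With slide as a further block the difference of 3R and CS at probe 41405 was 1.60 and did not pass (adjusted p = 0.39). The call was also lost without any single replicate of CS or without 3R replicates 1 or 2 (1.60 to 2.01, adjusted p from 0.066 to 0.11). As the lines look normalized apart, the scaling was changed too. After quantile normalization of all 18 samples together the difference at probe 41405 was 2.20 (adjusted p = 0.014). The 26 probes of green tissue had a median of 0.66 for 3R minus CS in controls with 0 of 26 called, and their part in the TaDMAS1 difference was not tested.

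**Figure D5:**
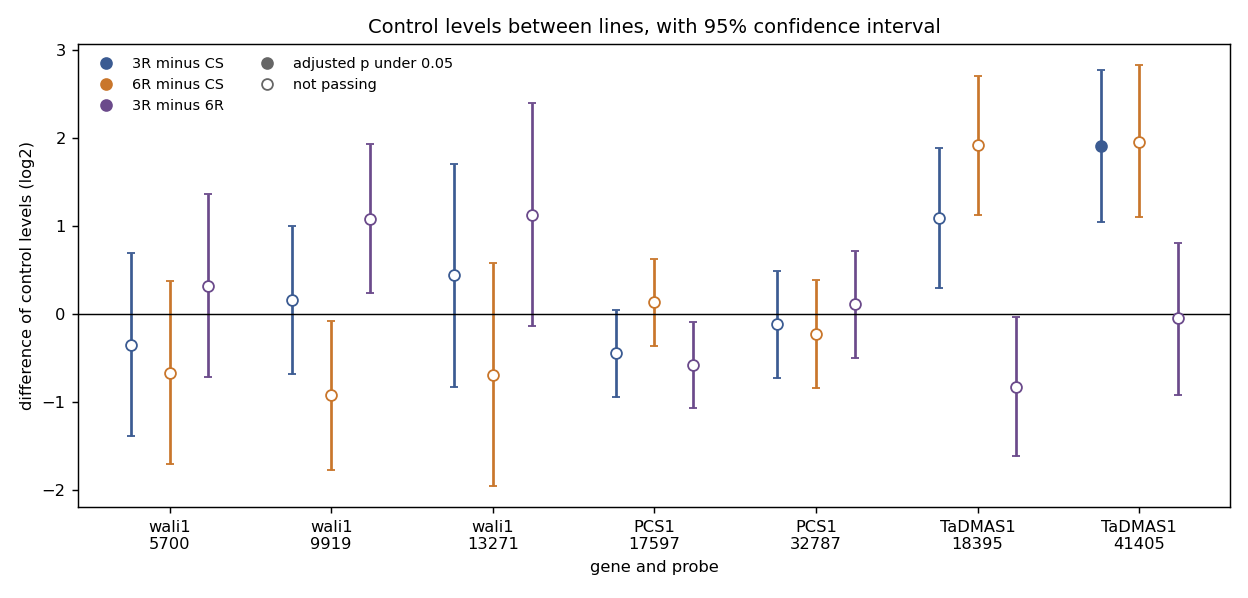
Difference of control levels between lines in log2 units (vertical axis) for each probe, with 95% confidence intervals, from 3 control samples per line. The 1 filled point, TaDMAS1 probe 41405 for 3R minus CS at 1.91, passed at an adjusted p under 0.05, and the difference of 6R and CS at that probe is 1.96.

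The control levels of wali1 and PCS1 did not pass in any comparison of lines. At wali1 probe 9919 the controls of 6R lay below those of CS by 0.92 ± 0.39 (3R minus 6R was 1.08 ± 0.39, adjusted p = 0.38), and they were lower than CS in both dyes. At PCS1 probe 17597 3R minus 6R was -0.58 ± 0.23 (adjusted p = 0.46). Of the 7 probes, 2, 3 and 3 had an unadjusted p under 0.05 for 3R minus CS, 6R minus CS and 3R minus 6R, against 13.9%, 7.83% and 8.19% of all rows. The members' medians were 0.16, -0.23 and 0.11, and those of all rows -0.08, -0.06 and -0.03.

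Ordered by mean level with dye removed, TaDMAS1 probe 18395 ran from 12.72 ± 0.19 (SD, n = 3) in 6R controls through 11.90 ± 0.40 in 3R controls, 11.35 ± 0.80 in 6R with Al, 11.06 ± 0.15 in 3R with Al and 10.80 ± 0.38 in CS controls to 9.74 ± 0.29 in CS with Al. Here the steps from 6R to 3R controls and from CS controls to CS with Al were larger than the SD of either neighbour, and the others were not. Probe 41405 ran from 11.50 ± 0.23 in 6R controls and 11.45 ± 0.46 in 3R controls over 10.91 ± 0.08 in 3R with Al, 10.50 ± 0.68 in 6R with Al and 9.94 ± 0.01 in CS with Al to 9.54 ± 0.18 in CS controls. At this probe the steps from 3R controls to 3R with Al and from CS with Al to CS controls exceeded the SDs. Thus both probes were highest in controls of the addition lines and lowest in CS.

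For wali1 probe 5700 the 3 Al groups stood first, at 15.68 ± 0.52 in CS, 15.59 ± 0.65 in 3R and 15.35 ± 0.42 in 6R, before the controls of CS (14.88 ± 0.13), 3R (14.53 ± 0.80) and 6R (14.21 ± 0.89). The step between the Al groups and the controls was the single one beyond the SDs. This order rests on the dye correction of values near the top of the range, since the highest corrected Al values, 16.08 in 3R and 16.02 in CS, lie above the highest value of the table, 15.73. Probe 9919 ran from 14.54 ± 0.13 in 3R with Al over 14.33 ± 0.43 in CS with Al, 13.79 ± 0.60 in 3R controls, 13.63 ± 0.36 in CS controls and 13.44 ± 0.11 in 6R with Al to 12.70 ± 0.23 in 6R controls, where the last step exceeded the SDs. Probe 13271 ran from 13.59 ± 0.54 in 3R with Al to 12.15 ± 0.73 in 6R controls with no step beyond the SDs. For PCS1 probe 17597, 6R with Al stood first at 9.97 ± 0.49 and 3R controls last at 8.83 ± 0.29, below 3R with Al at 9.16 ± 0.15 by more than the SDs, the single such step. Probe 32787 ran from 10.00 ± 0.24 in CS with Al to 9.17 ± 0.43 in 6R controls, with no step beyond the SDs.

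Among 273 rows with a descriptive gene name, those most like each probe over the 18 samples with dye removed were found by Pearson's r. Both TaDMAS1 probes were most like ha1, a plasma membrane proton pump (r = 0.81 at probe 18395 and 0.82 at probe 41405), followed by amy1, an alpha-amylase (0.78), and SH6.2 (0.77). Probe 5700 of wali1 was most like UBC1, a ubiquitin-conjugating enzyme (0.93), and the protein repair methyltransferase gene PIMT (0.79). Probe 9919 was most like the dehydrin gene WCOR410 (0.80) and the serpin gene WSZ2b (0.78), and probe 13271 like the serpin gene WSZ2a (0.69) and rbcL, the large subunit of Rubisco (0.63). For PCS1, probe 17597 was most like the lipid transfer protein gene LTP3 (0.88) and pre-FBPase (0.82), and probe 32787 like EM, a gene of the late embryogenesis abundant type (0.84), and COMT1, a methyltransferase of lignin synthesis (0.76). The probes of wali1 and of PCS1 thus had no gene in common in these lists. The r are descriptions, and the points share arrays and line normalization.

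Of the wider pathways few genes could be named on this array. A list of metal chelators and iron or zinc transporters held the 7 member probes and no others, and a list of organic acid efflux genes (ALMT, MATE, FRDL) held 0 named probes. A list for glutathione, sulfur and methionine supply held 8 probes, of SAMS (4 probes), cys1 (3) and GSTZ1 (1). SAMS encodes S-adenosylmethionine synthase, whose product is the building block of nicotianamine. In CS 2 of 8 probes rose (11.6% of all rows did), both of SAMS, at 0.70 (probe 22948, adjusted p = 0.011) and 0.61 (probe 42741, adjusted p = 0.0026). SAMS probes 17971 and 43527 did not pass there, at 0.09 (adjusted p = 0.89) and 0.01 (adjusted p = 0.99). In 3R 0 rose (7.71% of all rows) or fell (7.19%), and in 6R 1 rose (13.7% of all rows), SAMS probe 22948 at 0.65 (adjusted p = 0.013). In the mean of the lines, where 17.2% of all rows rose and 19% fell, SAMS probes 22948 and 42741 rose by 0.56 and 0.34. Probes 17971 and 43527 of SAMS stood at 0.08 and -0.05 and did not pass, and cys1 probe 33136 fell by 0.34 (adjusted p = 0.016). The list's median lay between -0.07 and 0.04 in the lines, close to that of all rows.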

How the data were processed

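The authors deposited log2 intensities of 18 samples, the single channels of 9 arrays of 2 colours; per the submitters' processing notes limma was used. How background was corrected and values normalized is not given in the sources used here; sorted values within a line differ by at most 0.006. In these deposited values the table has no detection or saturation flags, and all 45220 rows were tested. Probes were named through the platform annotation (996 rows with 1 symbol) and RefSeq synonyms; no genome build is named, so no position or sequence is printed.

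Within-array log2 ratios of Al over control were fitted per row in R 4.3.3 (limma 3.58.1), with line means and 1 dye term shared by all lines (5 residual degrees of freedom, prior 2.61). Control levels were compared on the 18 channels, fitting 6 groups and dye with arrays as random blocks (correlation 0.625). Calls are at an adjusted p under 0.05 (Benjamini-Hochberg, all rows). Samples are paired because they shared an array, and the residuals of such partners correlated at 0.722 to 0.855. The fits were also run on simulated data with known changes, and the outcome is not given here. Slides (3) were read from the numbers opening the scanner file names, and the replicate numbers of the titles were used. For 6R the scanner file names exchange replicates 1 and 2 of the titles, and the dyes given with the titles were used. The small number of arrays limits the precision, and p-values measure the spread between these pooled samples.

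The members and lists were chosen with earlier results of these data known. Named are all member probes, members of the lists that passed in any line, and per probe the 2 genes of highest r. The same-dye comparison was added after seeing the data. Alternatives changed the dye term, the array block, the samples fitted, slide, dim rows (mean under 6.3), the variance prior and the scaling, and left out each array.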

Additional observations from a re-analysis of the deposited data

Results flagged for a closer look

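The response of TaDMAS1 probe 41405 to Al had opposite signs in CS and in the addition lines, but the difference did not pass the test. With the dye effect removed, the 3 arrays of CS gave 0.58, 0.43 and 0.20 (log2 of Al over control), those of 3R gave -0.52, -1.08 and -0.03, and those of 6R gave -0.50, -0.55 and -1.97. Every array of CS was thus above 0 and every array of 3R and 6R below it. The array at -0.03 is close to 0. The share of all rows with such a split was not counted. In limma the values of CS (0.40 ± 0.31, adjusted p = 0.46) and 3R (-0.54 ± 0.31, adjusted p = 0.34) did not pass, so the sign in these lines is not settled. In limma the difference was -0.94 ± 0.43 for 3R minus CS (adjusted p = 0.51) and -1.41 ± 0.43 for 6R minus CS (adjusted p = 0.35). It was -0.54 for 3R minus CS without 3R replicate 2 and -0.88 for 6R minus CS without 6R replicate 3. The other TaDMAS1 probe, 18395, was below 0 in all 9 arrays, and its differences were 0.23 ± 0.33 and -0.31 ± 0.33. Before dye removal probe 41405 was above 0 in 1 of 3 arrays of CS. No sample group had more than 3 samples, so single samples were not tested as outliers.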

How the results depend on the processing

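The calls rest on the dye term and on the pairing of samples by array. Without a dye term, 0 of the 7 probes passed in CS, 3R, 6R, their mean and the control level of 3R minus CS (8.65%, 3.74%, 9.8%, 20.3% and 1.81% of all rows). With no replicate block (samples not paired by array) the counts were 0 in CS, 0 in 3R, 1 in 6R and 3 in the mean (5.28%, 1.63%, 6.01% and 13.8% of all rows), and 1 for the control level of 6R minus CS (0.0708%), which was also 1 with an intensity trend in the variance prior (0.0973%). The arrays of 3R alone gave 5 (23.4% of all rows), where each line's fit has its own dye effect and fewer arrays. Slide as a further block gave 0 for the control level of 3R minus CS (0.626%). With 1 array left out, counts ranged from 2 to 5 in CS, 0 to 3 in 3R, 1 to 5 in 6R, 0 to 2 for the control levels of 3R minus CS and of 6R minus CS, and 0 to 1 for 3R minus 6R. No called value changed sign in any alternative, but 32 of 144 fits without an array and 33 of 123 other fits of called values lost the call. Values that were not called and changed sign were small. TaDMAS1 probe 41405 in CS was -0.03 without a dye term, and its control level of 3R minus 6R was 0.06 with all samples quantile normalized together, 0.08 with each sample centred on its median, and -0.36 to 0.17 with 1 array left out. PCS1 probe 17597 for the control level of 6R minus CS was -0.08 with slide as a block and -0.13 to 0.32 with 1 array left out. With 1 array left out, wali1 probe 13271 in 3R ranged from -0.25 to 0.70, wali1 probe 9919 for the control level of 3R minus CS from -0.13 to 0.54, TaDMAS1 probe 18395 for the response of 6R minus CS from -0.57 to 0.10, and TaDMAS1 probe 41405 for the response of 3R minus 6R from -0.06 to 0.86. The cause of these changes was not tested. No member probe lies near the floor of the table, and wali1 probe 5700 lies near its top, which limits a rise there.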
